A study of Drosophila melanogaster with 31 samples.

Results

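Messenger RNA of Tsc1 mutant clones with and without knockdown of foxo was compared under nutrient restriction (NR) in 8 of the 31 libraries of the series, 4 in each group. The libraries were chosen by their labels, and the genes by their annotation: 13685 protein-coding genes of the 17559 genes in the table entered, and snoRNA, snRNA, tRNA and rRNA genes were left out before normalization. Each library came from 1 clone of about 50 cells, cut by laser from the part of the larval eye imaginal disc that lies anterior to the morphogenetic furrow. The eye disc is the epithelium that forms the adult eye, and the furrow is the front behind which its cells become photoreceptors. The other libraries were from clones of the same genotypes on normal food, and from wild-type (wt) clones without and with foxo knockdown (foxoRi, at 30°C) on both foods.

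The control clones were Tsc1[Q87X], at 25°C throughout, and the knockdown clones were Tsc1[Q87X] foxoRi, shifted to 30°C for the last 12 hr before dissection. Both groups carried the Q87X allele, and both sets of larvae were on food with yeast reduced to 10% of the normal amount and were dissected when wandering. The clones were made by the MARCM method with a heat shock at 37°C for 11 min at 36 hr after egg laying, on an FRT82 chromosome, and were recognized by loss of GFP. In such clones a ubiquitous tub-Gal4 driver is freed of Gal80, and a temperature-sensitive Gal80 (Gal80ts) holds the RNAi transgene off at 25°C and releases it at 30°C. The knockdown and the 5 degrees of temperature therefore cannot be told apart in this comparison. Control clones were from siblings kept at the lower temperature, and larvae were not selected for sex.

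Tsc1 and its partner gig (Tsc2) restrain the GTPase Rheb and through it TORC1, the kinase complex that couples nutrients to cell growth. Cells without Tsc1 have high TORC1 activity whatever the food. FoxO is a transcription factor that insulin signalling keeps out of the nucleus, and it turns on genes of growth restraint, stress resistance and metabolism when insulin signalling is low. Endoplasmic reticulum (ER) chaperones, ER-associated degradation (ERAD), which returns misfolded proteins to the cytosol, and the proteasome, which destroys them, are the parts of the cell's protein quality control that were of interest in this design.

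The 8 libraries held between 2884306 and 5267188 counts on protein-coding genes and between 9666 and 12449 such genes with a count. Values per library are given as CPM, counts relative to the protein-coding total of the library after TMM scaling. RNA of bulk clones was measured, so a change in the share of a cell type and a change in RNA per cell cannot be told apart. Markers of eye disc progenitors, 8 genes such as ey, toy, so and eya, summed to 4765 to 5717 CPM in the Tsc1 clones and to 2563 to 6118 CPM in the knockdown clones, so eye disc markers were present in all 8 libraries. The sum does not by itself place a clone anterior to the furrow. Some libraries stood apart. Markers of differentiating photoreceptors summed to 4328 CPM in replicate 2 of the Tsc1 clones and to between 158 and 689 CPM in the other 7 libraries. In that replicate, the furrow and photoreceptor genes gl, sev and ato were at 1302, 547 and 203 CPM. The 8 progenitor markers went both ways there. hth was at 77.9 CPM against 1276 to 1657 CPM in the other Tsc1 libraries, and tsh was at its lowest, at 107 CPM. so, eya and dac were at their highest of the 8 libraries, at 485, 1729 and 1799 CPM. ey, toy and Optix lay within the range of the other libraries. Replicate 2 of the knockdown had the lowest eya and dac, at 85.6 and 76.8 CPM. The 8 fat body markers, such as the larval serum proteins, summed to 8842 CPM in replicate 3 of the knockdown, to 2414 and 1287 CPM in replicates 3 and 4 of the Tsc1 clones, and to 13.8 to 128 CPM in the other 5 libraries. The 7 salivary gland markers, mostly Sgs glue genes, summed to 1762 and 695 CPM in replicates 3 and 4 of the Tsc1 clones, to 300.4 CPM in replicate 3 of the knockdown and to at most 139 CPM elsewhere among the 8. Muscle, glia and hemocyte markers overlapped between the groups, at 205 to 709, 191 to 437 and 61.3 to 212 CPM. The male-specific RNAs roX1 and roX2 summed to 0.496, 17.7, 1567 and 6.29 CPM in the Tsc1 clones and to 4114, 1189, 1807 and 5.89 CPM in the knockdown clones, so 1 control and 3 knockdown libraries were high. The part of sex in the comparison was not tested. Genes encoded by mitochondrial DNA took 12.1% of the protein-coding counts in replicate 1 of the knockdown and 1.77% to 6.61% in the other 7 libraries.

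**Figure D1:**
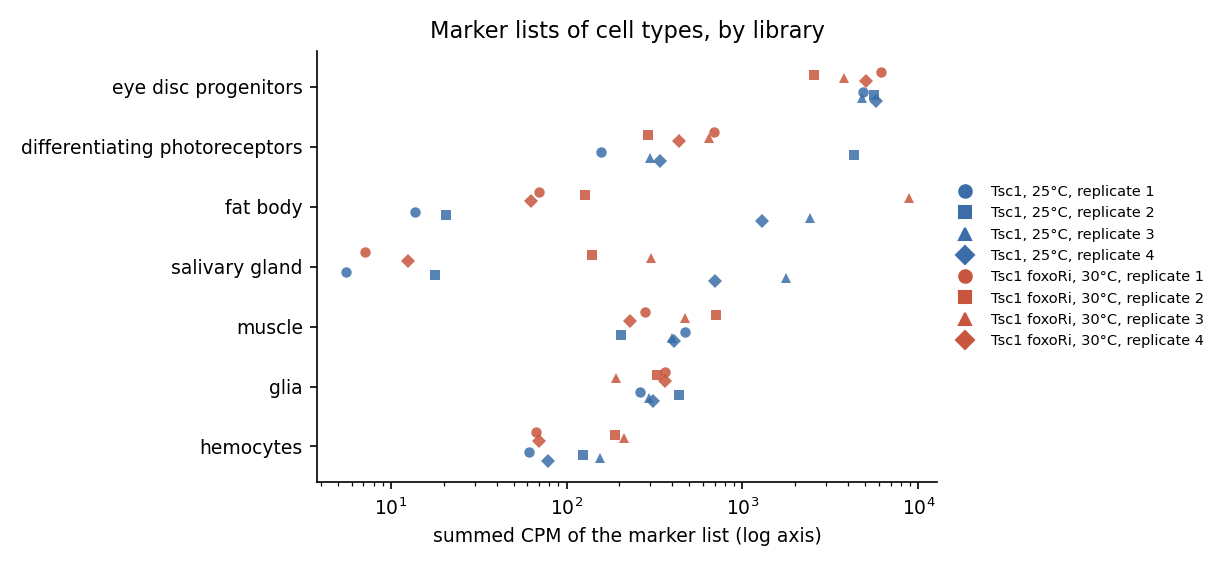
Summed CPM of 7 marker lists in each of the 8 libraries, on a log axis, with Tsc1 clones in blue and Tsc1 foxoRi clones in red and a symbol for each replicate number. Fat body markers stood at 8842 CPM in replicate 3 of the knockdown, and photoreceptor markers at 4328 CPM in replicate 2 of the Tsc1 clones.

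The targeted gene came first. foxo (FBgn0038197) lies on the + strand of chromosome 3R from 14056945 to 14087978 in the BDGP6.54 annotation, from which all positions here are taken. It was at 71.4, 85.8, 71.3 and 80.8 CPM in the Tsc1 clones and at 139, 71.3, 138 and 98.1 CPM in the knockdown clones. Of the knockdown libraries, 3 were above every control library and replicate 2 lay within the control range, so no library was below it. On the log2(CPM + 2) scale the difference of means was 0.47 higher upon knockdown (exact permutation test, two-sided, p = 0.114, n = 4 each), where the smallest p that 4 against 4 allow is 0.0286. With DESeq2's size factors in place of TMM the difference was 0.60 and the exact permutation p was 0.0286. The log2 fold change (FC) from edgeR's quasi-likelihood test was 0.53 ± 0.29 (standard error), with an adjusted p of 1.00. A fall of the foxo transcript was therefore not seen, and the counts do not bear on the protein. Tsc1 (FBgn0026317) itself was at 47.9, 57.8, 60.4 and 56.9 CPM in the Tsc1 clones and at 64.4, 63.2, 52.0 and 62.7 CPM in the knockdown clones (exact permutation test, two-sided, p = 0.314, n = 4 each). The groups overlapped, and counts per gene do not separate the mutant from a wild-type allele.

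Over all protein-coding genes, 11 rose upon knockdown and 0 fell by the rule of an adjusted p under 0.2 and a log2 FC over 0.8 in size. These were 0.0949% of the 11586 genes tested by edgeR's quasi-likelihood test, and the unadjusted p was under 0.05 for 531 genes, where 579.3 would be given by chance. Of the 531, 187 were higher and 344 lower, or 1.61% and 2.97% of all tested. DESeq2's Wald test called 2 genes lower, edgeR's likelihood ratio test 1 and limma-voom 4. The count of 11 depended on single libraries. With replicate 1, 3 or 4 of the control clones left out it was 0, and with control replicate 2 or knockdown replicate 3 left out it was 1. Leaving out knockdown replicate 2 or 4 gave 17 and 18 higher genes, with 4 and 5 called lower, and leaving out knockdown replicate 1 gave 12 and 3. Over the tested genes, the log2 FC had a median of -0.005. The biological coefficient of variation was 0.819 over the 29 libraries of the fit. In a fit of the 8 compared libraries alone, which tested 8041 genes, it was 0.609. In both, replicates of a gene commonly differed by a large fraction of its mean. At the spread of the 29 libraries, a test on simulated counts recovered 13 of 93 genes that were changed by a log2 FC of 1 and 36 of 92 changed by a log2 FC of 2.

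**Figure D2:**
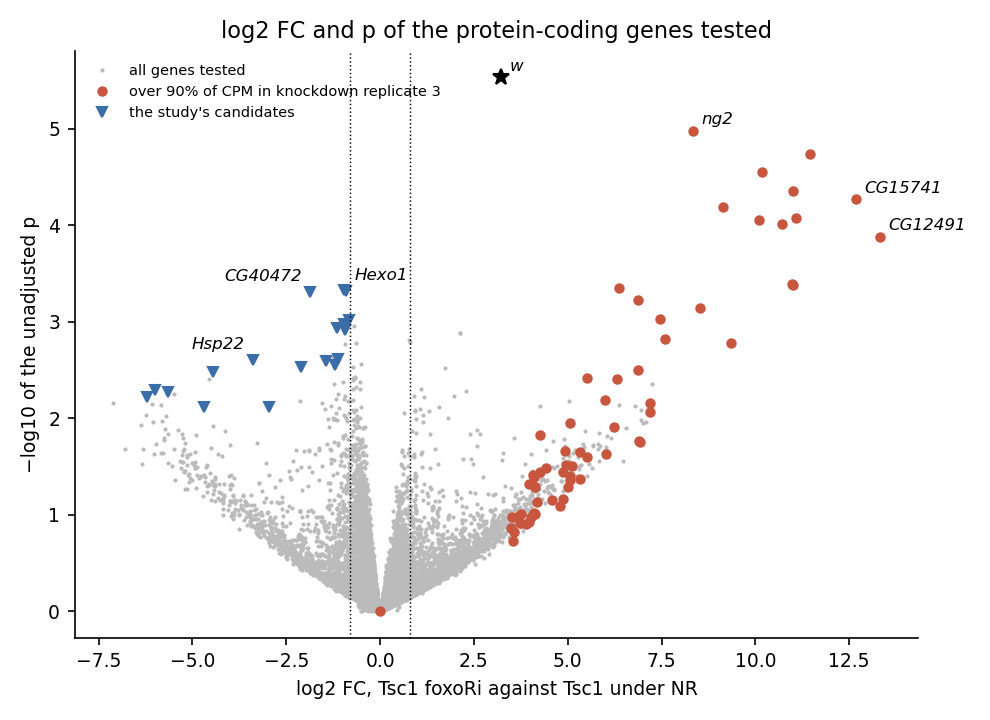
log2 FC of Tsc1 foxoRi against Tsc1 clones under NR (x axis, dotted lines at a log2 FC of 0.8 in either direction) and −log10 of the unadjusted p (y axis) for the 11586 protein-coding genes tested. The star is w, red points are the 63 genes with over 90% of their CPM in replicate 3 of the knockdown, and blue triangles are the 18 tested candidates of the study, all on the lower side.

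w (white, FBgn0003996), on the − strand of chromosome X from 2790599 to 2796466, encodes an ABC transporter of eye pigment precursors. It had the smallest p of all genes. Its level was 36.1, 55.0, 43.8 and 32.8 CPM in the Tsc1 clones and 111, 614, 337 and 513 CPM in the knockdown clones. Every knockdown library was above every control library, and replicate 1 of the knockdown was the nearest to the controls. The group mean rose from 41.9 ± 9.86 CPM to 394 ± 221 CPM (SD of 4 libraries in both). edgeR's quasi-likelihood test put the log2 FC at 3.23 ± 0.56 (standard error) with an adjusted p of 0.0342. The size was similar in all 25 other fits, from a log2 FC of 2.97 to 3.59, and w was called in 19 of them. It was not called when control replicate 1, 3 or 4 was left out (edgeR's adjusted p = 0.248, 0.235 and 0.303), with robust estimation (0.478), with the 8 libraries alone (0.277) and with all 31 libraries (1.00). On normal food, w was at 26.5 to 136 CPM in Tsc1 clones at 25°C and at 614 to 1170 CPM in Tsc1 foxoRi clones at 30°C, with a log2 FC of 3.78 (adjusted p = 0.00368, edgeR's quasi-likelihood test). In wt clones under NR, it was at 28.6 to 147 CPM without and at 451 and 600.2 CPM with foxo knockdown, a log2 FC of 2.45 (adjusted p = 0.910, edgeR's quasi-likelihood test). The effect on w in Tsc1 clones under NR differed by -0.55 from that on normal food (unadjusted p = 0.460) and by 0.78 from that in wt clones under NR (unadjusted p = 0.352), both on the log2 scale in edgeR's quasi-likelihood test of the difference. The roX RNAs of males were high in replicates 1, 2 and 3 of the knockdown, where w was at 111, 614 and 337 CPM. They were low in replicate 4 of the knockdown, where w was at 513 CPM. In the Tsc1 clones they were low in replicates 1, 2 and 4, with w at 36.1, 55.0 and 32.8 CPM. They were high in replicate 3 of the Tsc1 clones, where w was at 43.8 CPM. The part of sex in the level of w was not tested. The counts do not separate the gene on the X chromosome from copies of w that transgenes can carry.

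The other 10 called genes were high in replicate 3 of the knockdown alone: each had over 90% of its CPM there, which held for 0.544% of all genes tested, and for 1.3% of them in any 1 of the 8 libraries. They were ng2, ng3, Muc68Ca, lcs, CG32071, CG14265, CG15741, CG43117, CG13560 and CG12491. ng2 (FBgn0010294, chromosome X, 3240026 to 3240571), a member of the new glue family that is known from the larval salivary gland, was at 2.68, 3.06, 3.66 and 3.44 CPM in the Tsc1 clones and at 6.19, 1.38, 4179 and 2.39 CPM in the knockdown clones. The 2 groups overlapped with and without the third of these, as replicates 2 and 4 of the knockdown lay below every control library. Its neighbour ng3 (FBgn0010295, chromosome X, 3241491 to 3242084) was at 0.198, 2.30, 2.32 and 0 CPM against 20.7, 0, 10530 and 0.260 CPM. CG14265 (FBgn0040393), which lies near them on chromosome X from 3236130 to 3236686, was at 1252 CPM in the same library and at no more than 3.26 CPM in any of the other 28 libraries of the fit.

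Muc68Ca (FBgn0036181, chromosome 3L, 11610578 to 11620101), which encodes a mucin, was at 1.98, 6.67, 17.5 and 4.72 CPM in the Tsc1 clones and at 13.1, 16.1, 35669 and 1.82 CPM in the knockdown clones. Replicate 3 alone was high, and the other 3 knockdown libraries lay within or near the control range. With all libraries, the log2 FC of Muc68Ca was 10.18 ± 2.05 (standard error; adjusted p = 0.0817, edgeR's quasi-likelihood test), and without replicate 3 it was 0.49 (adjusted p = 1.00). For ng2 it was 8.34 ± 1.57 (adjusted p = 0.0609, edgeR's quasi-likelihood test) with that library and 0.09 without it. CG13560 (FBgn0034899) and CG12491 (FBgn0034900), which lie close to each other on chromosome 2R from 23747560 to 23748477 and from 23750646 to 23751225, were at 1470 and 1515 CPM in replicate 3. The remaining 4, lcs, CG15741, CG43117 and CG32071, were at 1435, 4018, 3312 and 5070 CPM there. All 10 genes stayed at or under 20.7 CPM in the other 28 libraries of the fit, the highest being ng3 in replicate 1 of the knockdown. Without replicate 3 of the knockdown, the number of called genes was 1 by edgeR's quasi-likelihood test, and this was w. DESeq2's Wald test and edgeR's likelihood ratio test without that library, both added after seeing the data, also called w alone.

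**Figure D3:**
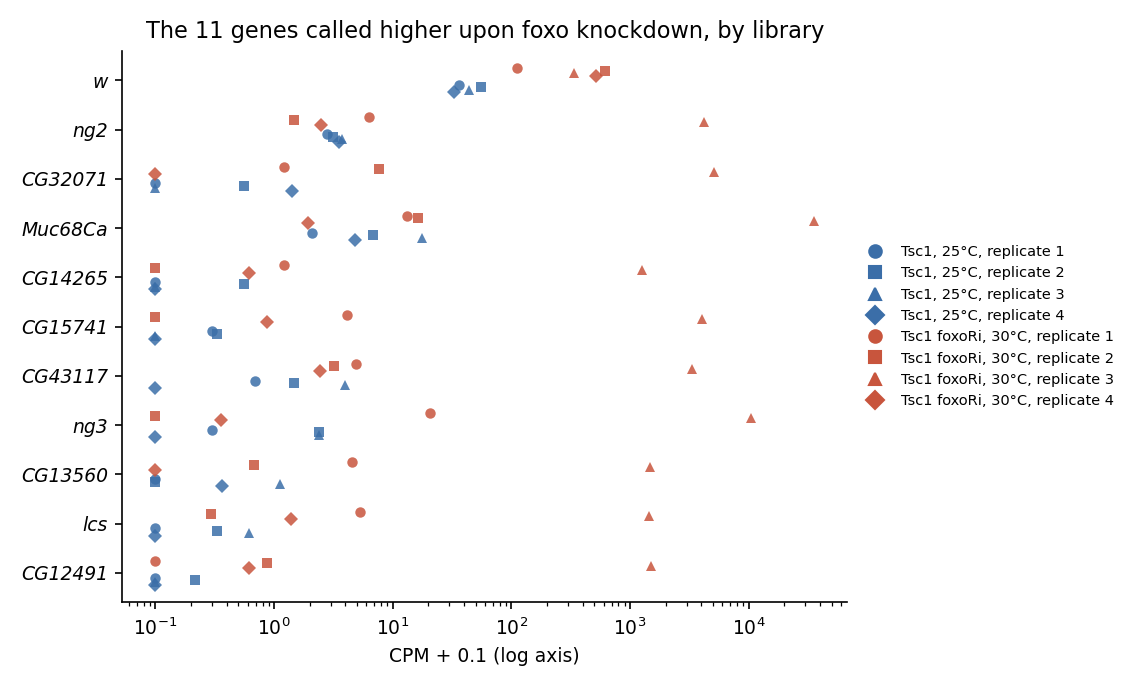
CPM plus 0.1 of the 11 genes that rose upon foxo knockdown, on a log axis, with 1 point per library, Tsc1 clones in blue and Tsc1 foxoRi clones in red. For w the groups do not overlap, whereas for the other 10 genes only replicate 3 of the knockdown (red triangle) lies at 1252 CPM or above.

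In all, 63 genes had over 90% of their CPM in replicate 3 of the knockdown, against 2 to 30 genes for each of the other 7 libraries. Of the 25 higher genes of smallest p, 19 were among the 63. Further genes of the 63, picked after their values were seen, were the glue gene ng1 at 4152 CPM, PH4alphaSG1, a prolyl hydroxylase known from the salivary gland, at 114 CPM, the lysozymes LysB and LysD at 166 and 258 CPM, and the digestive proteases Jon65Aiii, gammaTry and deltaTry at 145, 64.2 and 68.8 CPM. Each of these 7 was at no more than 3.40 CPM in the other 7 libraries. None was called by edgeR's quasi-likelihood test over all 29 libraries, though edgeR's likelihood ratio test called ng1, and the lysozymes and trypsins belong to families of near-identical copies between which reads can be shared, so their single values are uncertain. The fat body markers were at their highest in the same library, at 4078 CPM for Lsp1beta and 1584 CPM for Lsp2. They were also high in replicates 3 and 4 of the Tsc1 clones, at 728 and 585 CPM for Lsp1beta, where ng2 was at 3.66 and 3.44 CPM. The glue gene Sgs3 was at 106 CPM in replicate 3 of the knockdown and at 381 and 192 CPM in those 2 control libraries. The part of RNA from other tissues in these calls was not tested.

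No gene fell by the rule of calling, and the lowest adjusted p of a lower gene was 0.334 (edgeR's quasi-likelihood test). The values of the 10 lower genes of smallest p are given as measurements, not as calls. The groups did not overlap for 8 of them, and over all tested genes this was so, with knockdown lower, for 1.72%. CG40472 (FBgn0085736, chromosome 3L, 24927130 to 24927710) was at 65.8, 55.4, 38.8 and 39.0 CPM in the Tsc1 clones and at 17.9, 9.33, 14.0 and 13.5 CPM in the knockdown clones. Every knockdown library had less than every control library, with a log2 FC of -1.87 ± 0.48 (adjusted p = 0.334, edgeR's quasi-likelihood test). It was called lower in 2 of the 25 other fits, by DESeq2's Wald test and by edgeR's likelihood ratio test.

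Hexo1 (FBgn0041630, chromosome 3L, 4288641 to 4291211), which encodes a hexosaminidase, was at 143, 178, 112 and 138 CPM in the Tsc1 clones and at 64.9, 95.2, 57.5 and 74.9 CPM upon knockdown. The groups were apart, with a log2 FC of -0.96 ± 0.24 and the same adjusted p. An ATPase subunit of the proteasome cap is encoded by Rpt5 (FBgn0028684), on chromosome 3R from 23752876 to 23754623, which was at 247, 241, 161 and 202 CPM against 111, 111, 57.8 and 170 CPM. Here replicate 4 of the knockdown was above replicate 3 of the controls, and the log2 FC was -0.92 ± 0.23, again with an adjusted p of 0.334. CG8860 (FBgn0033691, chromosome 2R, 12179483 to 12179902), a homologue of the gamma subunit of the Sec61 channel that carries proteins into the ER, was at 147, 213, 136 and 133 CPM against 119, 82.4, 78.8 and 72.5 CPM, with no overlap and a log2 FC of -0.83. The receptor tyrosine phosphatase gene Ptp4E (FBgn0004368) was at 133, 191, 123 and 156 CPM against 74.2, 84.4, 51.7 and 97.7 CPM, with no overlap and a log2 FC of -0.97.

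grnd (FBgn0032682, chromosome 2L, 18485417 to 18488021), which encodes a receptor for the TNF ligand Eiger upstream of JNK, was at 150, 259, 165 and 137 CPM in the Tsc1 clones and at 95.6, 92.5, 66.9 and 114 CPM upon knockdown. CG2865 (FBgn0023526) was at 131, 229, 143 and 143 CPM against 66.0, 57.2, 70.7 and 96.4 CPM. In both genes the groups were apart and the highest value was in replicate 2 of the Tsc1 clones, the library with the photoreceptor markers, whose part in these differences was not tested. The log2 FC was -0.95 for grnd and -1.16 for CG2865 (adjusted p = 0.560 for both, edgeR's quasi-likelihood test). CNBP (FBgn0034802), a zinc finger protein that binds nucleic acids, overlapped, at 3664 to 5534 CPM against 1808 to 4160 CPM. RpL10Ab (FBgn0036213), of the large ribosomal subunit, was at 1916 to 2354 CPM against 1003 to 1900 CPM, and the glycolytic gene Gapdh1 (FBgn0001091) was at 207 to 250 CPM against 91.8 to 144 CPM, both without overlap. limma-voom called Gapdh1 and Rpt5 lower.

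**Figure D4:**
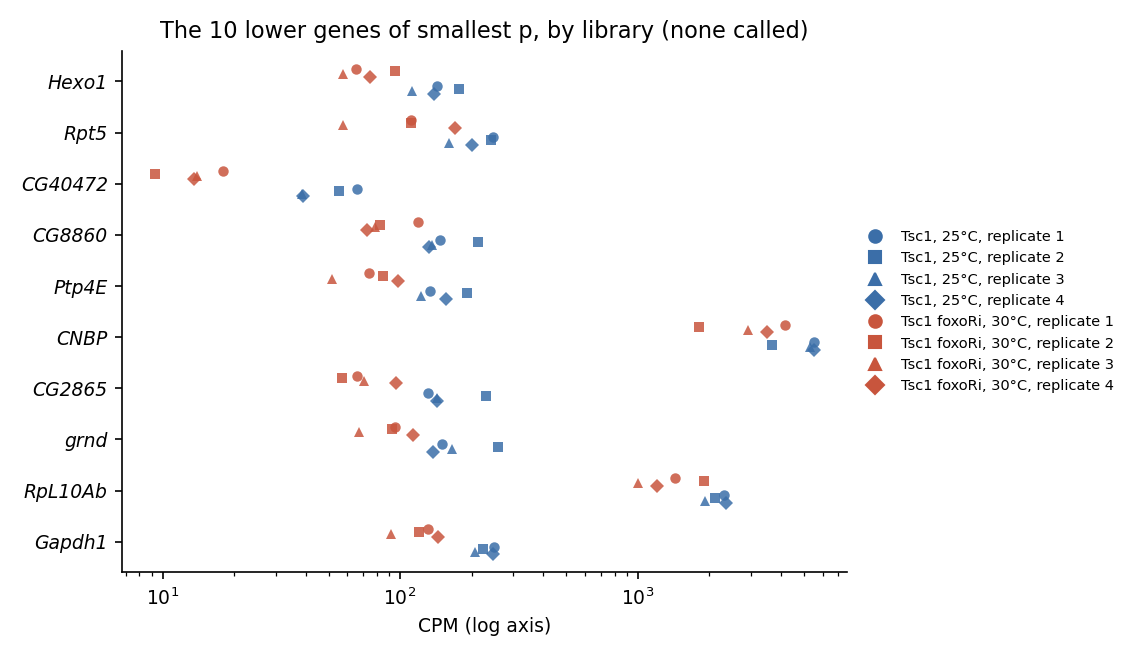
CPM on a log axis of the 10 lower genes of smallest p in each of the 8 libraries, with Tsc1 clones in blue and Tsc1 foxoRi clones in red. The groups are apart in 8 of the 10 genes and overlap in Rpt5 and CNBP, and none of the 10 was called by edgeR's quasi-likelihood test.

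The study carried candidates forward from its own comparison of these clones. Of those with a listed RNAi line, 20 were looked up here, which is not the whole list, and 7 of the 10 genes above are among them. Because the study chose the list on these samples by fold change and adjusted p, its direction, p-values and overlaps here are not independent evidence. Of the 20, 18 were found in the table and tested. All 18 were lower upon knockdown, and all had an unadjusted p under 0.05, where 2.97% of the tested genes were so and lower. The groups did not overlap for 11, where this was so, with knockdown lower, for 1.72% of the tested genes. edgeR's quasi-likelihood test called none of the 18, DESeq2's Wald test called CG40472 and Hsp22, edgeR's likelihood ratio test CG40472, and limma-voom Rpt5 and Obp56e. Their median log2 FC was -1.65, or -1.32 with the genes of no or nearly no counts upon knockdown set to the bound that 3 counts per library give.

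The largest fold changes in that list belonged to transcripts with few counts. Obp56e (FBgn0034471), an odorant-binding protein gene, had 20, 1, 20 and 6 counts in the Tsc1 clones and 0 in each knockdown library, so its mean CPM was at least 3.23-fold lower. Mco3 (FBgn0039387), a multicopper oxidase gene, was likewise listed at 0 in each knockdown library against 1.05 to 2.68 CPM, and was at least 2.12-fold lower. CG9896 was at 0.793 to 4.89 CPM in the Tsc1 clones and at 0, 0.0641, 0 and 0 CPM upon knockdown. CG42749 and CG15282 were at 37.7 and 21.4 CPM in replicate 2 of the Tsc1 clones and at no more than 3.67 CPM in any other of the 8 libraries. Hsp22 (FBgn0001223), a small heat shock protein of mitochondria, was at 4.16, 21.4, 76.7 and 25.9 CPM in the Tsc1 clones and at 1.11, 1.75, 0 and 9.10 CPM upon knockdown. The groups overlapped through the first control library and the fourth knockdown library, and the highest controls were replicates 2, 3 and 4, of which the last 2 carried fat body and salivary gland markers. CG4456 overlaps Hsp22 on the same strand of chromosome 3L, with counts that were nearly the same, so the pair cannot be told apart. clos was at 11.3 to 37.6 CPM against 1.11 to 7.15 CPM without overlap, and Fili, CG6766 and Ant2, the last an ADP/ATP carrier of mitochondria, overlapped, with a log2 FC of -1.43, -1.21 and -1.11.

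The 22 further gene lists held 586 tested genes, of which 0 were called by edgeR's quasi-likelihood test, with 57 lower and 10 higher at an unadjusted p under 0.05, where 2.97% and 1.61% of all tested genes were. The groups were apart, with knockdown lower, for 28 of the 586 genes, and with knockdown higher for 7, where 1.72% and 0.915% of all tested genes were. Candidates of the study are also members of these lists: CG8860, CG6766, Rpt5, Hsp22, CG4456 and grnd. They had been chosen as lower on these same samples, so the counts of lower genes are not independent of that choice. The lists are described by their counts and medians beside the median of -0.005 and the share of 50.4% with a log2 FC below 0 over all tested genes.

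Among 18 ER chaperone and unfolded protein response genes, 10 were lower and 8 higher, with a median log2 FC of -0.04, or -0.05 to 0.09 with 1 library left out. Hsc70-3, the ER chaperone also known as BiP, was at 755, 986, 527 and 562 CPM in the Tsc1 clones and at 585, 686, 1452 and 723 CPM upon knockdown. The groups overlapped, with replicate 3 of the knockdown as the highest (log2 FC 0.28, adjusted p = 1.00, edgeR's quasi-likelihood test). PEK, the kinase that slows translation under ER stress, was at 129 to 181 CPM against 51.6 to 224 CPM, a log2 FC of 0.04. Xbp1, the transcription factor whose messenger is spliced by Ire1 under ER stress, was at 189 to 303 CPM against 194 to 317 CPM, a log2 FC of 0.13. Counts per gene do not show the splicing of Xbp1. The smallest p in the list was that of Ostgamma, a subunit of the oligosaccharyltransferase (log2 FC -0.67, adjusted p = 1.00, edgeR's quasi-likelihood test).

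Of 27 tested genes in the list of ERAD and translocation into the ER, 22 were lower, with a median log2 FC of -0.30. The list also named genes outside ERAD proper, among them Cul1, SkpA, STUB1, Ubqn, Rad23 and Csp, so its median is not that of ERAD alone. In it, 2 genes were lower without overlap, CG8860 and Csp. CG6766, which the study considers a component of ERAD, was at 42.2 to 84.4 CPM against 10.6 to 50.2 CPM, with overlap. Its log2 FC was -1.21 (adjusted p = 0.810, edgeR's quasi-likelihood test), and as a candidate it had been chosen on these same samples. Csp, a chaperone of the DnaJ family, was at 265, 240.4, 239 and 294 CPM in the Tsc1 clones and at 223, 123, 98.2 and 202 CPM upon knockdown, a log2 FC of -0.68. Sec61alpha, the pore of the translocation channel, was at 449 to 790 CPM against 364 to 468 CPM, with a log2 FC of -0.57. Edem1, which sorts misfolded glycoproteins, had a log2 FC of -0.18, and Hrd3 and sip3, of the ubiquitin ligase complex in the ER membrane, had -0.18 and 0.13. Herp, of the same complex, had -0.30 and Npl4, which helps to extract its substrates, -0.22. The median of this list stayed between -0.38 and -0.23 with any of the 8 libraries left out.

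Of 32 proteasome subunit genes, 30 were lower and the median log2 FC was -0.39, with 9 lower at an unadjusted p under 0.05. After Rpt5, the smallest p were those of the ATPases Rpt3 and Rpt4. Rpt3 was at 242, 284, 159 and 240 CPM against 148, 110, 110 and 196 CPM, and Rpt4 was at 236, 207, 171 and 182 CPM against 112, 131, 55.7 and 185 CPM. In both, replicate 4 of the knockdown lay within the range of the controls. Prosalpha2 and Prosbeta6, of the core particle, were the 2 subunits without overlap, at 147 to 187 CPM against 90.05 to 133 CPM and at 123 to 150 CPM against 90.4 to 106 CPM. Summed over the 32 genes, the level was 6866, 5781, 5038 and 5721 CPM in the Tsc1 clones and 4430, 4407, 3685 and 5813 CPM in the knockdown clones. The sums of the groups overlapped through replicate 4 of the knockdown. Without replicate 3 or any other of the 8 libraries, the median log2 FC lay between -0.43 and -0.26.

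The heat-inducible chaperones lay on both sides. Of 8 tested small heat shock protein genes, 7 were lower, with a median log2 FC of -0.99, and this was -0.33 without replicate 2 of the Tsc1 clones, where Hsp26 was highest at 322 CPM. Hsp22 and CG4456, which cannot be told apart, both count among the 8, and both are candidates of the study. Of 17 genes of the Hsp70 family, Hsp90 and cochaperones, 14 were higher and the median log2 FC was 0.29. Hsp70Ba was at 6.26, 2.97, 156 and 73.1 CPM in the Tsc1 clones and at 296, 310, 193 and 453 CPM upon knockdown, with no overlap (log2 FC 2.40, adjusted p = 1.00, edgeR's quasi-likelihood test). Hsp70Bb was also apart, at 5.07 to 398 CPM against 477 to 1676 CPM. limma-voom called both higher. Hsp70Aa and Hsp70Ab were instead highest in replicate 3 of the Tsc1 clones, at 221 and 341 CPM against 22.7 to 39.4 and 63.2 to 114 CPM upon knockdown, and Hsp68 was at 237 CPM there. The Hsp70 genes are near-identical copies between which reads can be shared, so their single values are uncertain. Replicates 3 and 4 of the Tsc1 clones, the libraries with fat body and salivary gland markers among the controls, had the higher Hsp70 levels within that group in all 4 Hsp70 genes named, and the part of those tissues was not tested. The constitutive Hsc70-4 had a log2 FC of 0.03, Hsp83 of 0.33 and the heat shock factor Hsf of 0.17.

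Genes of insulin and TORC1 signalling were evenly spread, with 11 of 23 lower and a median log2 FC of 0.01, or -0.09 to 0.09 with 1 library left out. scyl, whose product inhibits TORC1 through the Tsc1 and gig complex, was at 10645, 7007, 6307 and 6582 CPM in the Tsc1 clones and at 7172, 2294, 3551 and 5045 CPM upon knockdown. Replicate 1 of the knockdown lay above 3 of the controls, and the log2 FC was -0.76 (adjusted p = 1.00, edgeR's quasi-likelihood test). Pdk1, the kinase that activates Akt, was at 32.4 to 39.3 CPM against 26.4 to 107 CPM, with the highest value in replicate 3 of the knockdown (log2 FC 0.72). Akt itself had a log2 FC of 0.07, Rheb of 0.22 and gig of -0.09.

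Among foxo and genes described as FoxO targets in flies, 8 of the 11 tested were higher upon knockdown, with a median log2 FC of 0.49, and the smallest p was that of foxo. The list as written holds foxo itself and also Myc, which the study describes as suppressed by FoxO at least in fly muscle. Its members therefore share no single expected direction. Without replicate 2 of the knockdown, the median was 0.06. Thor, the 4E-BP translation inhibitor, was at 3.77, 3.68, 7.72 and 19.9 CPM in the Tsc1 clones and at 13.3, 9.52, 58.1 and 0.520 CPM upon knockdown, which spans the control range on both sides. srl, the fly PGC-1, was at 139 to 203 CPM against 166 to 365 CPM, a log2 FC of 0.49. Sesn, a stress-induced inhibitor of TORC1, was at 11.1 to 26.2 CPM against 7.28 to 11.3 CPM (log2 FC -1.06), with a small overlap. The lipase gene bmm and the insulin-like peptide gene Ilp6 were at no more than 31.3 and 13.4 CPM in any of the 8 libraries.

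Of 82 cytoplasmic ribosomal protein genes, 76 were lower, with a median log2 FC of -0.21, and 6 were lower without overlap. RpLP1 was at 1750, 2083, 1718 and 1966 CPM in the Tsc1 clones and at 1548, 1213, 1450 and 1058 CPM upon knockdown, a log2 FC of -0.51. RpS7 was at 2050 to 2672 CPM against 1297 to 2006 CPM, a log2 FC of -0.53. Summed, these genes took 115960 to 126440 CPM in the Tsc1 clones and 84653 to 125810 CPM upon knockdown, with replicates 3 and 4 of the knockdown the lowest and replicate 1 within the control range. Without replicate 4 of the knockdown, the median was -0.04. Of 41 translation initiation factors, 36 were lower, with a median of -0.20 (-0.08 without replicate 1 of the Tsc1 clones), and 7 were lower without overlap, among them eIF2beta (276 to 304 CPM against 149 to 259 CPM) and eIF3g1 (163 to 191 CPM against 55.7 to 146 CPM). Mitochondrial ribosomal proteins and oxidative phosphorylation genes had medians of -0.16 and -0.21, which were 0.01 and -0.06 without replicate 1 of the Tsc1 clones and -0.02 and -0.12 without replicate 3 of the knockdown. Nucleolar and ribosome biogenesis genes had a median of 0.02, or 0.22 without replicate 1 of the Tsc1 clones, with 2 genes higher without overlap. These were mbm, a nucleolar protein gene, at 46.0, 34.2, 31.6 and 35.5 CPM against 67.0, 82.6, 101 and 61.0 CPM, a log2 FC of 1.08, and Non1.

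Glycolysis was lower in 11 of 12 genes, with a median log2 FC of -0.51 and 6 genes at an unadjusted p under 0.05. Gapdh1, PyK and Pgi were without overlap. PyK, pyruvate kinase, was at 441, 264, 300.0 and 361 CPM in the Tsc1 clones and at 185, 176, 249 and 246 CPM upon knockdown, a log2 FC of -0.67. Gapdh2, the second gene of the enzyme, was at 452 to 927 CPM against 222 to 523 CPM, a log2 FC of -0.90. Ldh, lactate dehydrogenase, was variable and low, at 4.05 to 68.8 CPM against 0 to 29.7 CPM. The summed level was 3629, 3568, 2317 and 2899 CPM in the Tsc1 clones and 1900, 2443, 1568 and 2209 CPM upon knockdown, with replicate 2 of the knockdown above replicate 3 of the controls. The median stayed between -0.66 and -0.31 with any of the 8 libraries left out, and was nearest to 0 without replicate 2 of the Tsc1 clones. Of 16 antioxidant genes, 10 were lower, with a median of -0.13. Cat, the catalase among them, was at 159 to 228 CPM against 71.6 to 141 CPM without overlap, a log2 FC of -0.71. Of 7 amino acid transporters, 4 were higher and 3 lower, with a median of 0.40 that was 0.15 without replicate 3 of the knockdown. gb, mnd, slif and sbm were on the higher side, with log2 FC of 0.48, 0.40, 1.11 and 1.20 and overlapping groups. path was the transporter gene without overlap, at 91.1, 114, 107 and 86.0 CPM against 42.3, 68.8, 9.43 and 72.3 CPM, a log2 FC of -1.04. The medians of 0.04 over 11 lipid genes and -0.05 over 22 autophagy genes changed sign with single libraries left out, from -0.13 to 0.13 and from -0.12 to 0.09. Of the autophagy genes, only Atg8a was without overlap, at 293 to 376 CPM against 169 to 277 CPM.

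Of 32 cell cycle and replication genes, 23 were lower, with a median log2 FC of -0.10. Without replicate 1 of the Tsc1 clones 14 were lower and the median was 0.02, and without replicate 2 of the knockdown 16 were lower and it was -0.02. The mitotic cyclin CycB had a log2 FC of -0.65, and CycB3 was at 144 to 186 CPM against 47.4 to 143 CPM without overlap, a log2 FC of -0.55. In the list of JNK signalling, cell death and competition, 12 of 22 genes were lower, with a median of -0.12, or 0.03 without replicate 2 of the Tsc1 clones. Beside grnd, the caspase gene Dronc was apart, at 36.2 to 46.8 CPM against 20.7 to 32.3 CPM, and the caspase inhibitor Diap1, also a target of Yorkie, was at 97.3 to 217 CPM against 38.3 to 112 CPM with overlap, a log2 FC of -0.97. kay, the fly Fos, was higher without overlap, at 79.8, 77.2, 75.1 and 82.3 CPM against 120, 105, 118 and 128 CPM, a log2 FC of 0.58 (adjusted p = 1.00, edgeR's quasi-likelihood test). Of 15 patterning and growth ligand and feedback genes, 9 were lower, with a median of -0.12, or 0.80 without replicate 2 of the Tsc1 clones. Among them, vn, an EGF receptor ligand, was higher without overlap, at 47.6, 14.7, 34.6 and 64.2 CPM against 124, 92.5, 108 and 148 CPM. The log2 FC of vn was 1.55 (adjusted p = 1.00, edgeR's quasi-likelihood test). Its lowest value was in replicate 2 of the Tsc1 clones, the library with the photoreceptor markers. Hippo pathway genes had a median of 0.07 over 13 genes, and 0.05 to 0.24 with 1 library left out, the highest without replicate 2 of the knockdown. Retinal determination genes had a median of 0.03 over 12, which was -0.18 without replicate 1 and 0.41 without replicate 2 of the knockdown.

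Further genes of smallest p in their lists overlapped between the groups. For mitochondria, mRpL47, mRpL53 and mRpS25 of the organelle's ribosome had log2 FC of -0.86, -0.72 and -0.52, and ATPsynbeta and ATPsyngamma of the ATP synthase had -0.46 and -0.62. COX5BL was listed at 0 in each Tsc1 library and at up to 4.28 CPM upon knockdown, nearly all of it in replicate 2. eIF3b, of the initiation factor that binds the small ribosomal subunit, was at 621 to 814 CPM against 487 to 654 CPM, and Nop60B, the pseudouridine synthase of the nucleolus, at 386 to 647 CPM against 524 to 1334 CPM. Trxr1, thioredoxin reductase, and Fer2LCH, a ferritin subunit, had log2 FC of -0.62 and -0.62, and the amino acid transporter genes CD98hc and JhI-21 -0.60 and -0.59. Fatty acid synthesis was represented by ATPCL, ACC and the transcription factor gene SREBP, at -0.54, -0.42 and -0.33. dap, the inhibitor of cyclin E kinase, was at 154 to 685 CPM against 130 to 185 CPM, with its highest value in replicate 2 of the Tsc1 clones. In the TORC1 and stress lists, chrb, the partner of scyl, had -0.55 and eIF2alpha, the target of PEK, -0.43. Atg18b had 1.05, ex, upstream of Hippo, 0.93, hpo itself -0.40, fj 0.64, tsh 0.46 and the growth factor gene dpp -1.14.

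**Figure D5:**
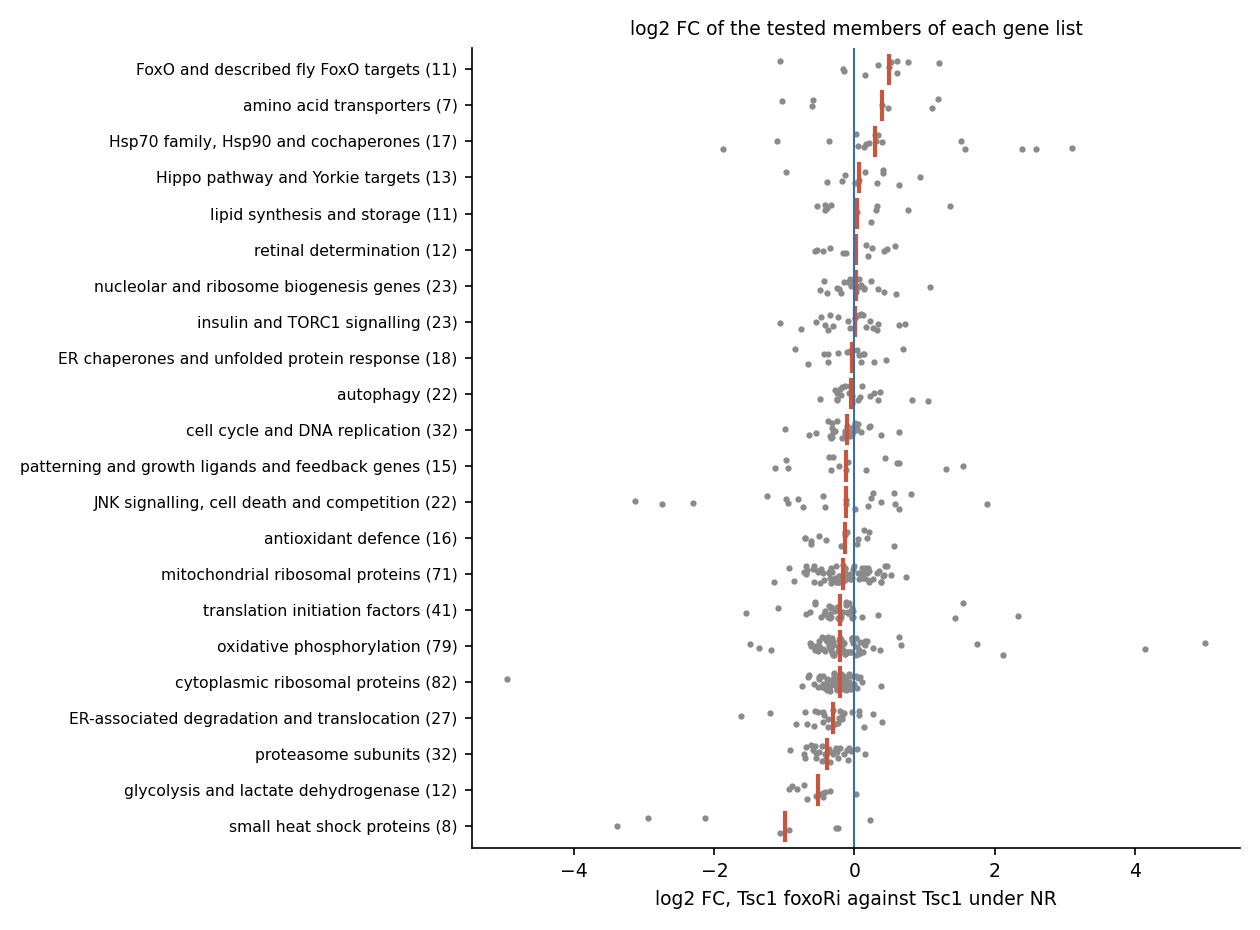
log2 FC of Tsc1 foxoRi against Tsc1 clones under NR for the tested members of 22 gene lists, 1 grey point per gene, with the number of genes in brackets, the median of each list as a red bar and the median of all tested genes (-0.005) as a blue line. The medians ran from -0.99 for small heat shock proteins to 0.49 for foxo and described FoxO targets, and edgeR's quasi-likelihood test called none of these 586 genes.

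Whether the knockdown acted differently under NR was tested against the 2 nearest comparisons, which have controls of their own. Larvae on normal food were dissected at an earlier age than those under NR, so food and age cannot be told apart in the difference between foods. By edgeR's quasi-likelihood test, 9 genes (0.0777%) were called for knockdown in Tsc1 clones on normal food, with 7.16% at an unadjusted p under 0.05. For knockdown in wt clones under NR, 0 were called by the same test, with 402 genes (3.47%) at an unadjusted p under 0.05. For the difference of the knockdown effect between NR and normal food in Tsc1 clones, edgeR's quasi-likelihood test called 0 genes, with 473 (4.08%) at an unadjusted p under 0.05, and DESeq2's Wald test called 7. For the difference between Tsc1 and wt clones under NR, edgeR's test called 0, with 417 (3.6%) at an unadjusted p under 0.05, and DESeq2's Wald test called 22. By p, the difference between foods was led by Hsp70Ab, with a log2 FC of -0.37 under NR and 4.71 on normal food, where it was at 1.29 to 13.7 CPM at 25°C and at 111 to 269 CPM at 30°C. Hsp70Aa was the second, at -1.11 and 4.38. Under NR, replicates 1 and 2 of the controls had as little Hsp70Ab as the controls on normal food, at 6.88 and 9.50 CPM, whereas replicates 3 and 4 had 341 and 124 CPM. The amino acid transporter gene path had a log2 FC of -1.04 under NR and 1.37 on normal food (adjusted p of the difference 1.00, edgeR's quasi-likelihood test). Muc68Ca and ng2 were among the 5 genes of smallest p in both tests, through replicate 3 of the knockdown. Between genotypes, brk, a repressor in Dpp signalling, had the smallest p, with a log2 FC of 0.81 in Tsc1 clones and -6.00 in wt clones, where the 2 knockdown libraries had 0 and 3.71 CPM and the 4 controls 24.3 to 335 CPM (adjusted p of the difference 0.953, edgeR's quasi-likelihood test).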

How the data were processed

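RNA of single laser-cut clones was sequenced as amplified cDNA (Ovation SoLo), and messenger RNA was set apart afterwards by annotation. In the 8 libraries compared, protein-coding genes took 23.3% to 53.2% of all counts and rRNA genes 27.3% to 49.9%. Replicate 1 of the knockdown had the lowest protein-coding share and replicate 2 of the Tsc1 clones the highest. The deposited table holds estimated counts per gene that the authors made with Trimmomatic, STAR and featureCounts on build BDGP6, and 17.1% of its values are not whole because reads that could belong to more than 1 gene were counted as fractions. Parameters are not given in the sources used here. Values were rounded to whole counts. Gene types and positions came from Ensembl's BDGP6.54 annotation, which held 17253 of the 17559 IDs. 716 small RNA genes and 3158 other genes that are not protein-coding or not matched were left out.

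The main test was edgeR 4.0.16 (R 4.3.3): filterByExpr, TMM, and a quasi-likelihood fit of group means over 29 libraries in 8 groups, with Benjamini-Hochberg adjustment. The study used 29 libraries without naming them, so the 2 with the fewest genes detected, which are in other groups, were left out. The calling rule asked for a log2 FC over 0.8 in size beside an adjusted p below 0.2. Standard errors are the log2 FC divided by the root of the F statistic. Each clone is 1 library. The p-values of the main test rest on a spread between clones that was estimated over all 29 libraries of the 8 groups. Only the exact permutation p-values rest on the clones of the 2 groups compared. CPM were compared by exact permutation of log2(CPM + 2) for foxo and Tsc1.

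Named genes were foxo, Tsc1, w and the RT-qPCR genes, every called gene, the 10 lower genes of smallest p, the study's candidates, the 3 genes of smallest p of each list in part, and the 5 of smallest p of each difference. Further list members were named for their role after their values were seen. The members and lists were chosen with earlier results of these data known. Lists are described without a test. A group at 0 was set to 3 counts per library for a bound on its fold. On simulated counts, 9 of 10567 unchanged genes were called. These counts were drawn independently around a common mean for each gene. They hold no library that stands apart over many genes, as replicate 3 of the knockdown did. The rate of false calls in the real libraries can therefore not be read from them. Alternatives were limma-voom (limma 3.58.1), DESeq2 1.42.0, other tests, scalings, filters and sets of libraries, and each library left out. Figures were drawn with matplotlib 3.10.9 in Python 3.11.15 from tables made with pandas 2.3.3, numpy 2.4.6 and scipy 1.17.1. Promoter sequences were not analysed here.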

Additional observations from a re-analysis of the deposited data

Results flagged for a closer look

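A library far from the other 3 of its group (gap to the nearest over 0.829 of the range) was seen in 14 of 74 groups of values. Chance gives about 1 in 20, but most of these genes were named for values of these same libraries, and a group with 3 values of 0 meets the limit by construction, so the share is not read against chance. Replicate 3 of the knockdown held 7 of them: ng2 at 4179 CPM, Muc68Ca at 35669 CPM, CG14265 at 1252 CPM, CG15741 at 4018 CPM, CG43117 at 3312 CPM, CG12491 at 1515 CPM and, as a low value, Tsc1 at 52.0 CPM. In replicate 2 of the Tsc1 clones, CG14265 at 0.460 CPM and CG12491 at 0.115 CPM were the only values above 0 in their group, CG2865 was high at 229 CPM and CNBP low at 3664 CPM. Photoreceptor markers were at 4328 CPM in that replicate, and their part was not tested. In the knockdown clones, Fili was high in replicate 1 at 362 CPM, clos was low there at 1.11 CPM, and CG9896 had its only value above 0 in replicate 2, at 0.0641 CPM.

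The snoRNA genes were not part of the comparison. They took 1.36% to 2.18% of all counts in the Tsc1 clones and at least 2.37% in every knockdown library, up to 4.19%, so the groups did not overlap. The cause was not tested.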

How the results depend on the processing

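Against 11 genes called higher, there was 1 at an adjusted p under 0.05, 6 by DESeq2's Wald test, of which w alone was among the 11, 13 by edgeR's likelihood ratio test, 10 of them among the 11, 10 by limma-voom, again with w alone shared, 0 with robust estimation, 3 with the stricter filter of 5 CPM in 4 libraries, 0 with the 8 libraries alone, 5 with all 31 libraries and 1 with the 14 NR libraries. Fits without 1 library each called 0 to 18 genes higher and 0 to 5 lower. Genes called lower numbered 2 by DESeq2's Wald test, 1 by edgeR's likelihood ratio test and 4 by limma-voom. DESeq2's Wald test and edgeR's likelihood ratio test without replicate 3 of the knockdown, chosen after seeing the data, both called 1. Small RNA genes kept out or in, DESeq2's size factors, upper-quartile scaling and counts rounded down left the same 11 genes, except that 9 of them were called with all genes in the table. The log2 difference in foxo was 0.60 with DESeq2's size factors, 0.55 with the stricter filter and 0.55 with the 8 libraries alone, each with an exact permutation p of 0.0286, and 0.38 to 0.70 without 1 library each. It was 0.44 with DESeq2's size factors and without replicate 3 of the knockdown. The differences between foods and between genotypes had 7 and 22 genes by DESeq2's Wald test against 0. DESeq2's size factors moved the median log2 FC of all genes to 0.12, so list medians are read relative to it. Relative to it they were -0.31 for the list of ERAD and translocation, -0.39 for the proteasome and -0.45 for glycolysis.

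Replicate numbers are shared by the groups. Same-numbered libraries deviated together with correlations of 0.110, -0.0447, 0.0972 and 0.132, and not every library correlated best with its own number, so the numbers were not taken as pairs. The fit with a replicate block called 1 gene higher, w.

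The 4 libraries in each group and the spread between clones limit these tests to large changes. At 2884306 to 5267188 counts, genes under about 1 CPM rest on a handful of reads.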
